A study of Homo sapiens with 11 samples.

Results

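A pair of short hairpin RNAs against the same target, Tat-SF1, was compared array by array: the 3 arrays of cells expressing shRNA B against the 3 arrays of cells expressing shRNA A, 6 of the 11 arrays of the series. All cells were T-REx-293, an HEK293 (human embryonic kidney) derivative that makes the repressor through which tetracycline controls a plasmid's promoter. Each carried a stable plasmid for green fluorescent protein (GFP), and every culture received 2.5 µg/mL tetracycline for 72 h, so that the plasmid and the drug were shared by all groups. The remaining 5 arrays came from cells with an empty vector (2 arrays) or an shRNA against GFP (3 arrays); they entered no test between the shRNAs and are given as values. The design text describes biological replicates, 12 in all, of which the third empty vector sample failed quality control. The labels do not say whether the stable cells of a construct came from 1 clone or from several cultures, so that p-values measure the spread between these arrays. Total RNA was hybridised to Affymetrix Human Exon 1.0 ST arrays, which carry probe sets along the exons of each gene.

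An shRNA is transcribed as a hairpin, cut by Dicer into a short duplex and loaded into an Argonaute protein, which then silences mRNAs that pair with the guide strand. Hairpins of different sequence against the same mRNA share that target, while each guide can also pair through its seed with other mRNAs. Tat-SF1, the product of HTATSF1, is an RNA-binding protein first known as a cofactor of the HIV Tat protein. It binds SF3B1 in the U2 small nuclear ribonucleoprotein, which recognises the branch point of introns, and it also associates with transcription elongation factors. The hairpins' own sequences were not used here, and pairing of either guide with other mRNAs was not analysed here.

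No gene differed between the shRNAs after adjustment for all genes tested. Of 14534 genes, 0 passed an adjusted p of 0.05 in limma with Benjamini-Hochberg adjustment (0%), and the smallest adjusted p was 0.149, for CEBPE. An unadjusted p under 0.05 was reached by 810 genes (5.57%), of which 411 were higher (2.83%) and 399 lower (2.75%) with shRNA B. In 1543 genes (10.6%) the 3 arrays of shRNA B lay entirely above or below the 3 of shRNA A. Differences ranged from -0.47 to 0.50 on the log2 scale, and the sizes of 82 genes were over 0.25, 33 higher and 49 lower with shRNA B. The 95% interval of a gene's difference reached a median of 0.11 to either side. The GFP shRNA and the empty vector, neither of which targets Tat-SF1, also gave 0 genes at an adjusted p of 0.05 (0%), with 519 at an unadjusted p under 0.05 (3.57%) in limma. The median size of a difference was 0.030 between the shRNAs and 0.035 between those controls. These rest on 3 against 3 and on 3 against 2 arrays, and fewer arrays widen a difference. The probe sets were also chosen on the 6 shRNA arrays, so the sizes do not rank the contrasts.

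**Figure D1:**
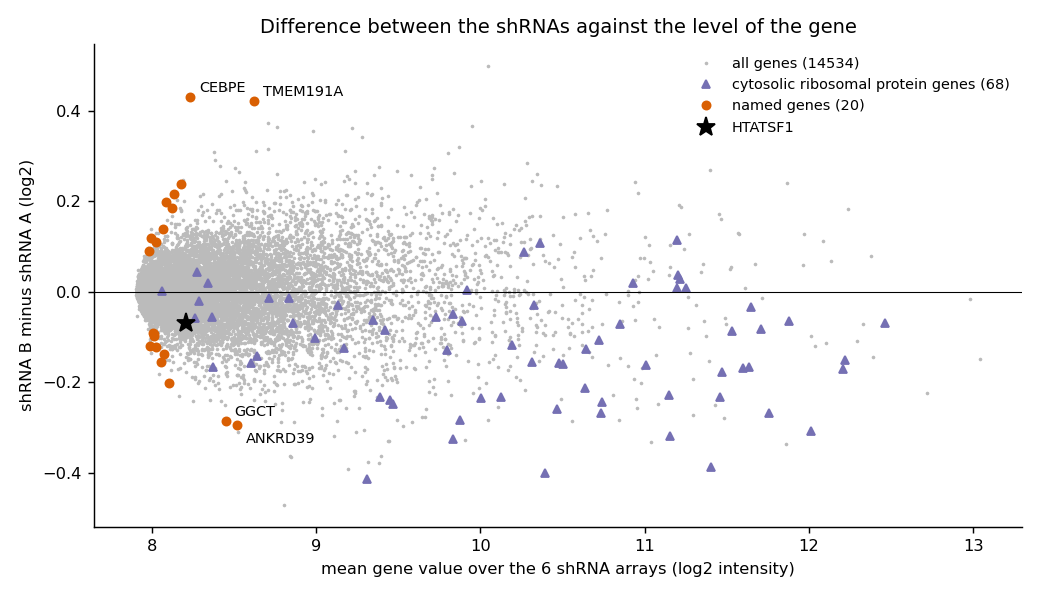
Each of the 14534 genes is a point, with its mean value over the 6 shRNA arrays (log2 intensity) on the x axis and shRNA B minus shRNA A (log2) on the y axis; orange circles are the 20 named genes, triangles the 68 cytosolic ribosomal protein genes and the star HTATSF1. All points lie between -0.47 and 0.50, CEBPE and TMEM191A stand at the top left, and most triangles lie below 0.

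The gene value used throughout is the median of a gene's probe sets on an array, on the log2 scale of the deposited table. The array medians over all probe sets lay between 7.90 and 7.91, and dim probe sets crowded at that level. No detection call is used here, so a gene near 7.9 may be measured with its differences compressed; 7200 of the genes (49.5%) had a level under 8.2. The mean of the 3000 brightest genes was 9.26 ± 0.026 with shRNA A and 9.26 ± 0.065 with shRNA B (SD, n = 3 each; two-sided exact permutation p = 1), against 9.33 ± 0.041 in the controls (SD, n = 5). Replicate 1 of shRNA B had the lowest of these means, at 9.19. Among HEK293 markers, VIM, HOXB9, KRT8, INA, NEFL, KRT18 and CDH2 had unfiltered levels of 9.0 or more with both shRNAs, whereas NEFM, PAX2, PAX8, LHX1 and SOX11 stayed below 8.0 on that measure. The mean unfiltered levels of the fibroblast, endothelial, blood, hepatocyte and carcinoma marker lists ran from 7.81 to 7.94 with shRNA A, from 7.81 to 7.94 with shRNA B and from 7.80 to 7.96 in the controls. EPCAM, an epithelial adhesion protein of the carcinoma list, was the sole marker of those lists above 8.2 (8.61 with shRNA A, 8.60 with shRNA B, 8.78 in the controls). The array names carry a suffix whose meaning the labels do not state: all 3 arrays of shRNA B and replicate 3 of shRNA A have it, and no other array does. Among the 4 arrays with the suffix alone, 5 genes passed, of which ESRRB is described here, with shRNA A then down to 1 array.

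HTATSF1, the shared target, was lower than in the controls with both shRNAs, and was among the genes that passed when both together were set against them (described further on). Its gene value was 8.29, 8.21 and 8.22 on the arrays of shRNA A and 8.11, 8.19 and 8.21 on those of shRNA B. The empty vector arrays gave 8.54 and 8.32, and the GFP shRNA arrays 8.53, 8.63 and 8.49. All 6 shRNA arrays lay below all 5 control arrays, and the shRNA groups touched each other: the highest array of shRNA B was above the lowest of shRNA A. The mean was 8.24 ± 0.040 with shRNA A, 8.17 ± 0.054 with shRNA B (SD, n = 3 each) and 8.50 ± 0.12 in the controls (SD, n = 5). The difference between the shRNAs was -0.07 (SE 0.048, 95% interval -0.17 to 0.037; limma adjusted p = 0.930; two-sided exact permutation p = 0.2, where 0.1 is the smallest that 3 against 3 can give). After the array median was taken off on the linear scale, the signal was 63.0 ± 8.59 with shRNA A, 49.0 ± 10.8 with shRNA B (SD, n = 3 each) and 124 ± 28.4 in the controls (SD, n = 5), or 50.7% and 39.4% of the control mean. A lower residual level with shRNA B could not be told from the spread between arrays.

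Along the gene, 14 of 17 probe sets passed the filter on dim values, and all 14 had means below the control mean with each shRNA. With shRNA B, 12 of them were lower than with shRNA A and 2 were higher. The widest gap was at probe set 3992538, where shRNA A gave 8.30, 8.09 and 8.18, shRNA B gave 7.90, 8.09 and 7.96, and the control mean was 8.52. The opposite end was probe set 3992526, with a mean of 8.33 for shRNA A, 8.40 for shRNA B and 8.64 for the controls. Both shRNAs therefore read lower over the whole measured length of the transcript rather than at 1 stretch of it. In the splicing index, which is a probe set's log2 value minus the value of its gene on the same array, only 3992538 of the 14 had an unadjusted p under 0.05 in limma, and the smallest adjusted p was 0.894.

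**Figure D2:**
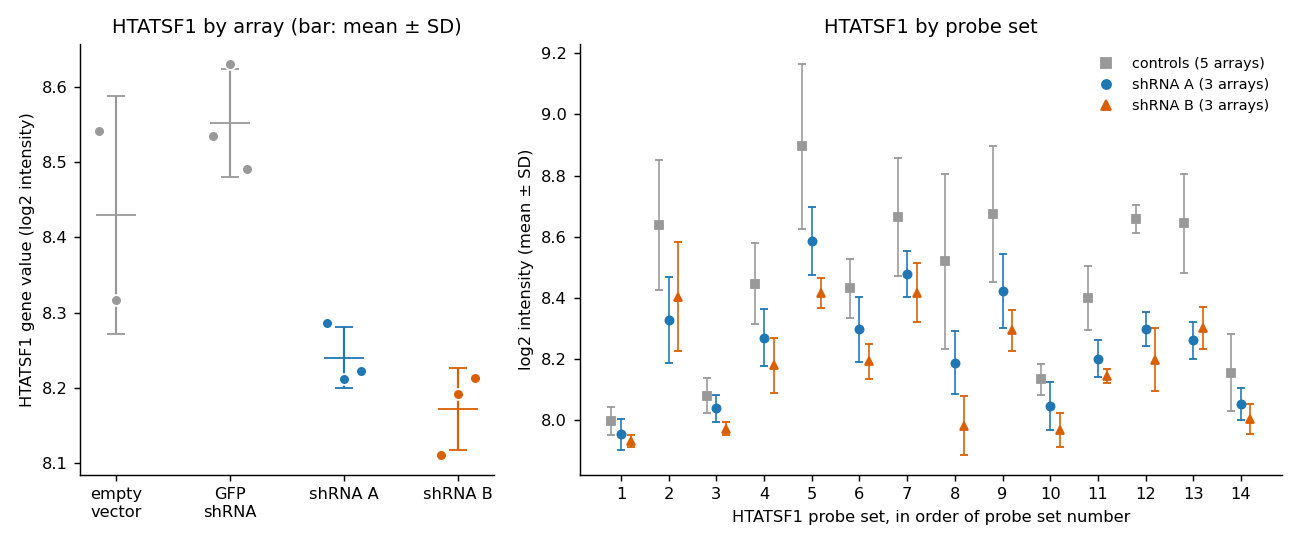
The left panel plots the HTATSF1 gene value (log2 intensity) of each array by construct, with bars for mean ± SD; the right panel plots the mean ± SD of the 14 probe sets (log2 intensity) in the controls, with shRNA A and with shRNA B. The 6 shRNA arrays lie between 8.11 and 8.29, below the lowest control at 8.32, and at every probe set both shRNA means lie below the control mean.

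Since no gene passed, the 10 genes of smallest unadjusted p in each direction whose groups did not overlap are described as values, not as changes. CEBPE, which encodes a C/EBP transcription factor of granulocyte development, gave 7.94, 8.01 and 8.11 with shRNA A and 8.37, 8.52 and 8.46 with shRNA B. The controls ran from 8.45 to 8.83 with a mean of 8.60, so that shRNA B overlapped the control range and all arrays of shRNA A were below it. The difference was 0.43 (SE 0.059, limma adjusted p = 0.149), with all 4 probe sets higher with shRNA B. CEBPE passed when the mean of the probe sets replaced their median (adjusted p = 0.0430 in limma) or with robust eBayes (adjusted p = 0.0307). TMEM191A showed the reverse arrangement: 8.37, 8.41 and 8.45 with shRNA A, 8.96, 8.72 and 8.82 with shRNA B, and a control mean of 8.27. Here the arrays of shRNA B stood above all controls, whose highest value was 8.39, and the arrays of shRNA A reached from within the control range to just above it. The difference was 0.42 (SE 0.073, limma adjusted p = 0.449). All 4 probe sets of TMEM191A were higher with shRNA B, by 0.0024 to 1.79. The largest of these rested on the scattered probe set 3937735, which gave 8.08, 5.05 and 9.15 with shRNA A and 9.33, 8.71 and 9.60 with shRNA B.

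The other genes higher with shRNA B were dim. PADI1, a peptidylarginine deiminase that turns arginine into citrulline in proteins, gave 8.04, 7.98 and 7.94 with shRNA A and 8.13, 8.24 and 8.19 with shRNA B, against a control mean of 8.03. NAGPA, the enzyme that uncovers the mannose 6-phosphate tag of lysosomal hydrolases, gave 8.04, 7.99 and 8.05 against 8.27, 8.203 and 8.17, with all 8 of the probe sets that passed the filter, of 21 on the array, higher with shRNA B. Without the filter NAGPA stood at -0.0015. The control mean of NAGPA was 8.14, between the shRNAs. LRATD1 (0.22), EXOC3L1 (0.24), the protocadherin gene PCDHGB1 (0.14), CLDND2 (0.12), the deubiquitinase gene USP51 (0.11) and C9orf43 (0.09) made up the rest. The probe sets of EXOC3L1 disagreed: probe set 3695473 differed by 0.82 and another by -0.012. PCDHGB1 shares exons with the other protocadherin genes of its cluster, so that its own level is uncertain.

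Of the genes lower with shRNA B, ANKRD39 and GGCT had the highest levels. ANKRD39, an ankyrin repeat protein gene, gave 8.70, 8.62 and 8.69 with shRNA A and 8.36, 8.38 and 8.38 with shRNA B, and the control mean was 8.55. GGCT, gamma-glutamylcyclotransferase of the glutathione cycle, gave 8.54, 8.63 and 8.61 against 8.31, 8.27 and 8.34, with a control mean of 8.39. In both genes shRNA A lay above and shRNA B below the control mean. The differences were -0.29 for ANKRD39 (SE 0.058) and -0.29 for GGCT (SE 0.057), each with a limma adjusted p of 0.449. The probe sets of GGCT agreed in direction in 7 of 9 and those of ANKRD39 in 3 of 5. Without the filter on dim probe sets ANKRD39 turned to 0.038, over the 8 probe sets on the array, and GGCT stayed at -0.29.

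MT1G, a metallothionein that binds zinc and copper, gave 8.17, 8.28 and 8.16 with shRNA A and 8.03, 7.92 and 8.06 with shRNA B (difference -0.20, limma adjusted p = 0.483). Its controls ran from 7.90 to 8.39, wider than either shRNA, and MT1G has near-identical sister genes, so that its value is uncertain. The protocadherin gene PCDH19 (-0.16), the pseudogene DLSTP1 (-0.14), the adhesion protein gene IGSF9B (-0.12), the nuclear receptor gene ESRRB (-0.12), FSTL4 (-0.10), the serotonin receptor gene HTR1D (-0.09) and CELF5 (-0.09), an RNA-binding protein gene, were the remaining 7. DLSTP1 resembles its parent gene DLST and is uncertain for that reason. FSTL4 had the most probe sets of them, and 16 of 17 were lower with shRNA B. At CELF5 the 4 probe sets that passed the filter, of 22 on the array, were lower, and over all 22 the difference was 0.0096.

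Across the 20 named genes, sizes ran from 0.09 to 0.43, the level of 16 was under 8.2, and 10 rested on 4 probe sets. When dim probe sets were kept, 8 of the 20 turned their direction: ANKRD39, CELF5, DLSTP1, ESRRB, EXOC3L1, LRATD1, MT1G and NAGPA. TMEM191A stood at 0.030 there, CEBPE at 0.43 and GGCT at -0.29.

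**Figure D3:**
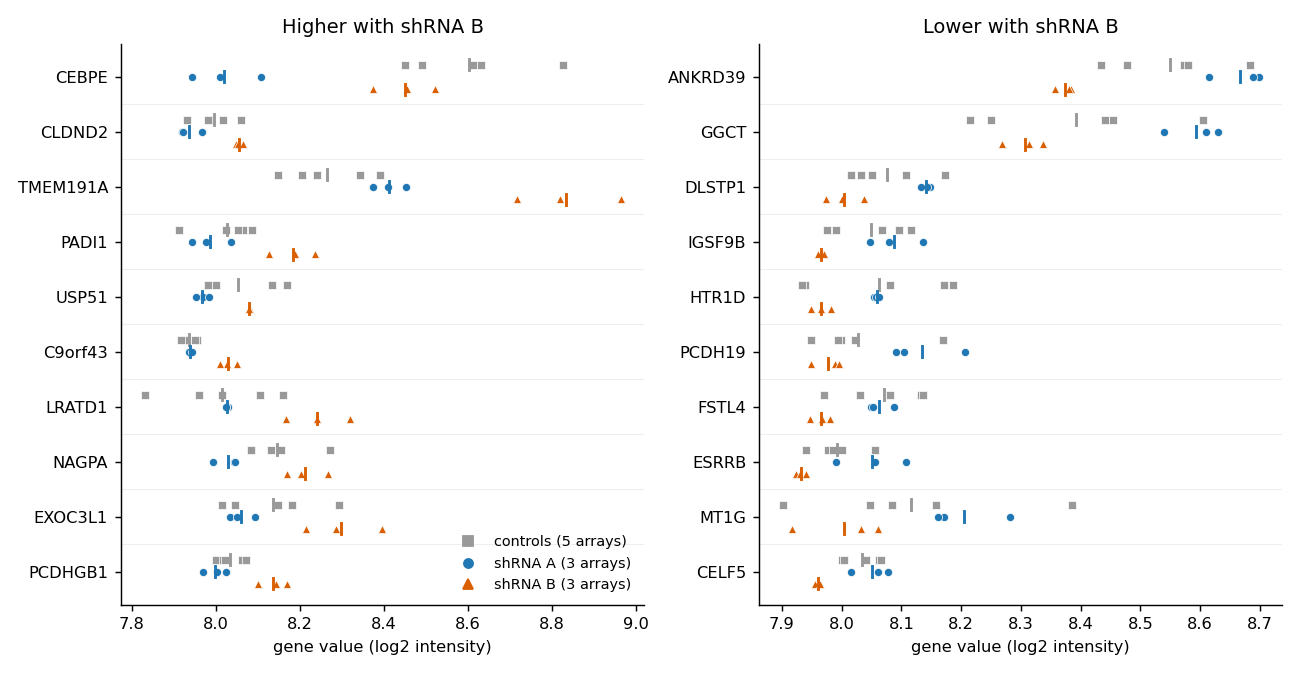
Gene values (log2 intensity, x axis) of the 20 named genes on each array, with controls as squares, shRNA A as circles, shRNA B as triangles and a short bar at each mean. Within every gene the triangles and circles do not overlap, while the 5 controls often span both.

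Exon usage gave a like result. Of 219636 probe sets, 0 passed an adjusted p of 0.05 in the splicing index (0%); the smallest adjusted p was 0.886, 12220 had an unadjusted p under 0.05 (5.56%) and the groups did not overlap in 21947 (9.99%). The 12 probe sets of smallest p, 1 per gene, again stand as values, and each had an adjusted p of 0.886 in limma. At LRFN4, a synaptic adhesion protein gene, probe set 3336580 had a splicing index of -0.08, -0.13 and -0.02 with shRNA A and 0.68, 0.49 and 0.49 with shRNA B, and controls from -0.47 to 0.23. The probe set's own mean level was 8.34 with shRNA A and 9.12 with shRNA B, so that the gap was in the probe set and not only in the gene value. At ARHGEF1, probe set 3834521 gave -0.66, -0.58 and -0.64 with shRNA A and -0.03, -0.23 and 0.00 with shRNA B, where the controls ran from -0.80 to -0.24. Its level was 7.82 with shRNA A, under the array medians, and 8.38 with shRNA B.

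AURKA, the mitotic Aurora A kinase, had a splicing index of -0.87 ± 0.033 at probe set 3910796 with shRNA A and -0.45 ± 0.039 with shRNA B (SD, n = 3 each), and its control mean was -0.92. RBM4, an RNA-binding protein that itself regulates splicing, gave -0.58 ± 0.095 at probe set 3336438 with shRNA A against -0.05 ± 0.085 with shRNA B, nearer to the control mean of -0.14. The RBM4 gene value was 0.20 lower with shRNA B, and the level of the probe set was 8.28 with shRNA A and 8.61 with shRNA B. Part of this gap is thus that of the gene value. Of the RBM4 probe sets, 3336427 alone fell by as much as the gene value, from 8.86 to 8.62. The 0.20 was therefore not a fall shared by the gene's probe sets. BRD7, a bromodomain subunit of a SWI/SNF complex, gave -0.29 with shRNA A and 0.0050 with shRNA B at probe set 3691089. Its gene value is the median of 36 probe sets, some numbered far from this one (2650117 to 2650139 and 2921558 to 2921572). The genome positions of those were not examined, so the BRD7 gene value is uncertain. GGCT had an index 0.32 higher with shRNA B at probe set 3044139, but the level of that probe set was 7.91 with shRNA A and 7.94 with shRNA B. There the index differed because the gene value was 0.29 lower, by construction, and not the probe set.

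Of the 6 probe sets lower with shRNA B, PCNX3 had the smallest p. Its probe set 3335426 gave -0.40, -0.35 and -0.41 with shRNA A and -0.87, -0.90 and -0.95 with shRNA B, and the controls between them ran from -0.73 to -0.42. The PCNX3 gene value differed by less than 0.01, and the probe set's level was 8.17 with shRNA A and 7.66 with shRNA B, below the array medians. DLX2, a homeobox transcription factor of the forebrain, gave -0.01 ± 0.016 against -0.45 ± 0.074 at probe set 2587008 (SD, n = 3 each). The control mean was -0.02, and the arrays of shRNA A gave 0, 0 and -0.03. An index of 0 arises by construction where the probe set is itself the median of its gene, which narrows the spread. Values of 0 also occurred at ARHGEF1, RBM4, DHCR7 and DYNLL2. At BRD7 the arrays of shRNA B gave 0.002, 0.006 and 0.008, next to the gene's median. The DLX2 gene value was 0.13 higher with shRNA B, and the level of the probe set was 8.56 with shRNA A and 8.25 with shRNA B. Part of this gap is therefore that of the gene value. Of the DLX2 probe sets, 2587005 alone rose by as much as the gene value, from 8.55 to 8.70. The 0.13 was thus not a rise shared by the gene's probe sets. PEG10, an imprinted gene derived from a retrotransposon, gave -0.70 against -1.15 at probe set 3013267, with a control mean of -0.78. DHCR7 differed by -0.36 at probe set 3380700, ANKRD54 by -0.46 at 3960251 and the dynein light chain gene DYNLL2 by -0.34 at 3728525. At ANKRD54 and DYNLL2 the gene values were 0.27 and 0.22 higher with shRNA B, which by construction lowers the index of a probe set that does not follow. At ANKRD54 the level of 3960251 was 8.30 with shRNA A and 8.11 with shRNA B, while that of probe set 3960265 was 8.27 and 8.98. Of the 12 probe sets of ANKRD54, 3960265 alone had a higher index with shRNA B. No other differed in level by as much as the gene value, so the 0.27 was not a rise shared by the gene's probe sets.

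**Figure D4:**
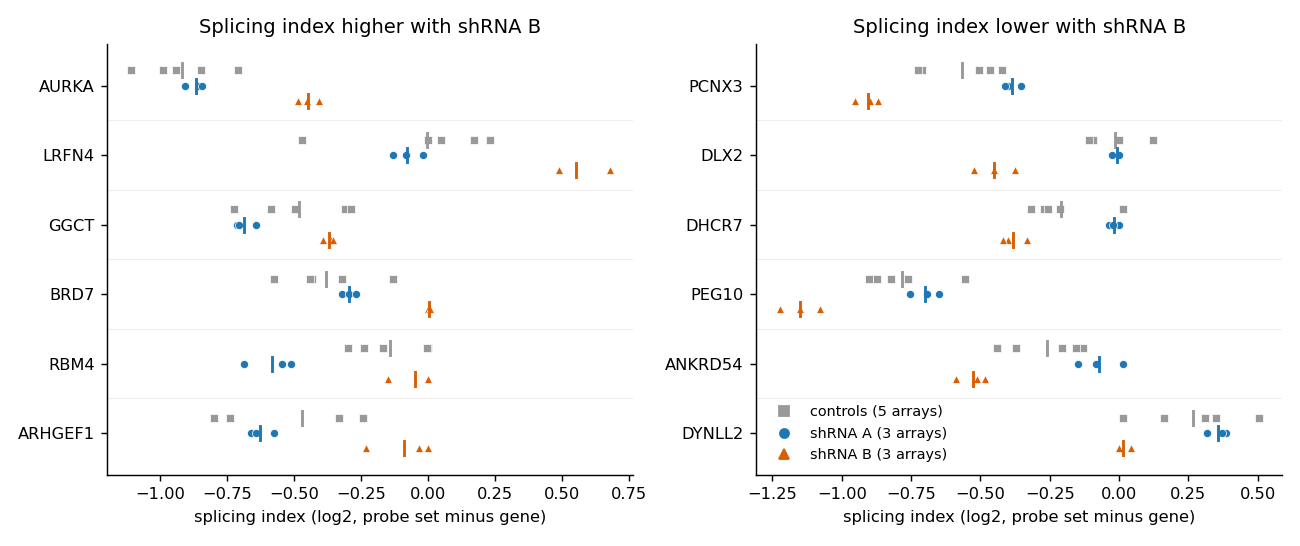
Splicing index (log2, x axis) of 12 probe sets, labelled by gene, on each array, with a short bar at each group mean. Circles (shRNA A) and triangles (shRNA B) do not overlap at any of the 12, and the control squares overlap the circles at most of them, though not at RBM4 or PCNX3.

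The test that pools the residual spread over all probe sets of a gene, diffSplice in limma, called 528 probe sets at an FDR of 0.05, in contrast to 0 in the test of each probe set on its own. The groups did not overlap in the splicing index of 346 of them, against 9.99% of all 219636 probe sets, a share that being called itself raises. Of the 14534 genes, 85 passed its gene-level F test. The test takes the probe sets of a gene to vary alike, so that a scattered probe set can be called. At LOC727751, probe set 3636140 was called (1.67, FDR 1.1e-09) though its groups overlapped. It called 3 of the 12 probe sets above: those of LRFN4 (FDR 0.0071), ARHGEF1 (FDR 0.00031) and PCNX3 (FDR 0.0072). Those of AURKA (FDR 0.930) and RBM4 (FDR 0.0799), among others, did not pass it. At ANKRD54 it called probe set 3960265, higher with shRNA B, and not 3960251 (FDR 0.194).

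The spliceosome and its partners, to which Tat-SF1 is tied, held no gene that passed. Of the components of the U2 particle, SF3 and U2AF, 20 of 22 were measured, 11 higher and 9 lower with shRNA B, 0 at an unadjusted p under 0.05, with a median difference of 0.035. SF3B2, an SF3b subunit, gave 9.62, 9.58 and 9.66 with shRNA A and 9.92, 9.71 and 9.73 with shRNA B. Of 33 other spliceosome genes measured, 16 were higher and 17 lower, with a median of -0.031. An unadjusted p under 0.05 was reached by 2.83% of all genes higher and 2.75% lower, and here by 2 members in each direction. These were PRPF6 (0.22) and PRPF19 (0.21), of the tri-snRNP and the Prp19 complex, and LSM2 (-0.26) and LSM3 (-0.21), of the ring on U6 RNA. Their limma adjusted p-values ran from 0.784 to 0.868. Among 35 SR protein and hnRNP genes, which bind exons and introns to steer splice site choice, 20 were higher and 15 lower (median 0.021). Against 2.83% of all genes, 1 was higher at an unadjusted p under 0.05. That was SRSF9, at 10.14, 10.32 and 10.31 with shRNA A and 10.46, 10.63 and 10.38 with shRNA B.

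Of 34 elongation factor genes measured, 20 were higher and 14 lower, with a median of 0.027, and 3 were higher at an unadjusted p under 0.05, a threshold that 2.83% of all genes reached in that direction. PAF1, of the PAF complex that travels with RNA polymerase II, gave 9.63, 9.60 and 9.51 with shRNA A and 9.82, 9.94 and 9.73 with shRNA B. SUPT5H, the large DSIF subunit, differed by 0.17 and HEXIM1, an inhibitor of the kinase P-TEFb, by 0.19; the limma adjusted p-values of all 3 lay between 0.823 and 0.868. The groups did not overlap in 6 members higher (5.28% of all genes) and 1 lower (5.34%) with shRNA B.

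Genes of the small RNA pathway, which the hairpins use, and of the response to double-stranded RNA were examined because both hairpins pass through that machinery. Of 22 measured small RNA genes, 6 were higher and 16 lower, with a median of -0.038 and 0 at an unadjusted p under 0.05. AGO1, an Argonaute, gave 8.74, 8.72 and 8.91 with shRNA A and 8.65, 8.64 and 8.74 with shRNA B, overlapping. Of 28 measured interferon genes, 13 were higher and 15 lower (median -0.00054), with 1 and 2 at an unadjusted p under 0.05 (2.83% and 2.75% of all genes). ISG20, an exonuclease induced by interferon, gave 8.34, 8.25 and 8.26 against 8.15, 8.15 and 8.14, IFITM1 differed by -0.08 and OAS2 by 0.05. With the mean of the probe sets ISG20 stood at 0.0037, and without the filter OAS2 stood at -0.0023. The differences of these 3 do not share a direction, and their limma adjusted p-values lay between 0.807 and 0.854.

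The cytosolic ribosomal protein genes were the list with the largest median difference. Their mRNAs typically begin with a C in an unbroken pyrimidine stretch, the 5′ terminal oligopyrimidine tract, through which their translation answers to growth signals. Of 78 listed, 68 were measured: 56 were lower with shRNA B (82.4%, where 50.8% of all genes were lower) and 12 higher, and the median was -0.12 against -0.00061 over all genes. At an unadjusted p under 0.05, 12 were lower and 0 higher, where 2.75% of all genes were lower and 2.83% higher, and 0 passed after adjustment over all genes. Non-overlapping groups were found in 14 members lower and 0 higher, against 5.34% and 5.28% of all genes. Among the 790 genes of like level, between the quartiles of these members at 9.38 and 11.2, 49.5% were lower, 3.42% were lower at an unadjusted p under 0.05, and the median was 0.00082. Many of these genes have processed pseudogenes of nearly the same sequence, so that the value of a single member is uncertain.

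RPL30, a large subunit protein, gave 10.69, 10.57 and 10.52 with shRNA A and 10.04, 10.20 and 10.33 with shRNA B, with a difference of -0.40 (SE 0.107, limma adjusted p = 0.735). RPL18, of the same subunit, gave 12.21, 12.18 and 12.10 against 11.89, 11.65 and 12.03. In both, all arrays of shRNA B were below all of shRNA A. RPS14, a small subunit protein, had the widest difference of the list at -0.41 but overlapped: 9.69, 9.15 and 9.71 against 9.08, 9.20 and 9.03. FAU, whose product is cut to release the small subunit protein eS30, gave 9.97, 10.17 and 9.86 against 9.68, 9.50 and 9.84 (difference -0.33, limma adjusted p = 0.810). RPS28 (-0.39) and RPS27 (-0.23), also of the small subunit, had unadjusted p-values of 0.0178 and 0.0175 in limma. With the mean of the probe sets the differences were smaller: -0.21 for RPL30, -0.13 for RPL18, -0.23 for RPS14 and -0.23 for FAU. When dim probe sets were kept, RPS14 stood at -0.63, and RPL30, RPL18 and FAU were unchanged.

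The stretch around the annotated transcription start is shown for 5 members with low p-values, without RPL30, because the pyrimidine tract lies there; 4 of these 5 windows hold the letters CTTTC, against 5 of the 12 windows of all members lower at an unadjusted p under 0.05. Each line gives 20 bases before the start and 10 bases from it on, 5′ to 3′ on the strand of the gene, from RefSeq with the build GRCh38.p14; capitals mark the unbroken run of C and T that spans the start. The positions are chr5:150449730-150449759 (minus strand) for RPS14, chr19:48619169-48619198 (minus strand) for RPL18, chr11:65122125-65122154 (minus strand) for FAU, chr1:153990742-153990771 (plus strand) for RPS27 and chr19:8321476-8321505 (plus strand) for RPS28, where no such run spans the start.
RPS14: tcgctccgccccctcccaCTCTCTCTTTCC
RPL18: cgcccaccccagcccgTTCTCTCTTTCCgg
FAU: tgacgcgccctcgCTTCTTCCTCTTTCTCg
RPS27: gcaggatttccgctttcgCTCCTTTCCggc
RPS28: ggctctccccgaagcacgtgactcctctcc
Of the 68 measured members, 58 matched a RefSeq entry by symbol, with 71 windows in all. The letters CTTTC occurred on the strand of the gene in 28 of the 71 windows (39.4%) against 1585 of 35116 windows of the same length over all genes (4.51%), and on the opposite strand in 2.82% against 3.12%. The first 5 transcribed bases were all C or T in 43 windows (60.6%), against 5.17% over all genes. Within the list, CTTTC was present in 5 of the 12 windows of members lower at an unadjusted p under 0.05 (41.7%) and in 23 of the 59 windows of the others (39.0%). All of the first 5 bases were C or T in 9 of those 12 windows and in 34 of the 59 others (57.6%). Neither split was tested.

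By array, the median of the members against their mean over the 6 shRNA arrays was 0.069, 0.053 and 0.025 for shRNA A and -0.13, -0.0041 and -0.044 for shRNA B. The 5 control arrays lay between 0.078 and 0.21, above every shRNA array. Replicate 1 of shRNA B was the lowest: 62 of its 68 members were below the mean of shRNA A, against 43 and 51 for replicates 2 and 3. It was also lower over all genes, with 9524 of 14534 below the mean of shRNA A, against 6288 and 6626. Without that array, 48 of 68 members were lower, the median was -0.071, and 7 had an unadjusted p under 0.05. Leaving out replicate 1 of shRNA A gave 54 of 68 lower and also 7 at that threshold. When the suffix entered the fit as a block, which sets shRNA B against replicate 3 of shRNA A, 47 of 68 were lower, the median was -0.086 and 4 had an unadjusted p under 0.05. The part of the lower brightness of replicate 1 in these counts was not tested.

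The histone list ran the same way with fewer genes. All 11 measured of 24 listed were lower with shRNA B, where 50.8% of all genes were, with a median of -0.098. After adjustment 0 passed, and 1 was lower at an unadjusted p under 0.05, where 2.75% of all genes were. Over the other settings run, 7 to 11 members were lower, 0 to 2 of them at that threshold. H1-10, a linker histone, gave 8.54, 8.21 and 8.36 with shRNA A and 8.11, 8.195 and 8.08 with shRNA B (difference -0.24, limma adjusted p = 0.784). H1-4, also a linker histone, gave 12.52, 12.40 and 12.46 against 12.26, 12.29 and 12.40. Groups did not overlap in these 2 genes, as in 5.34% of all genes in that direction, and H1-2 (-0.23) and MACROH2A1 (-0.10) overlapped. Of the 25 probe sets of MACROH2A1, 12 were higher and 13 lower with shRNA B. MACROH2A1 stood at -0.0061 with their mean and at -0.020 without the filter on dim probe sets. With the mean, H1-10, H1-2 and H1-4 stood at -0.21, -0.14 and -0.15. Histone genes have near-identical copies and their values are uncertain on that account. The list median per array was 0.0034, 0.069 and 0.071 with shRNA A, -0.13, -0.024 and -0.038 with shRNA B, and 0.055 to 0.19 in the controls; replicate 1 of shRNA B was again the lowest array, and without it 8 of 11 were lower.

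**Figure D5:**
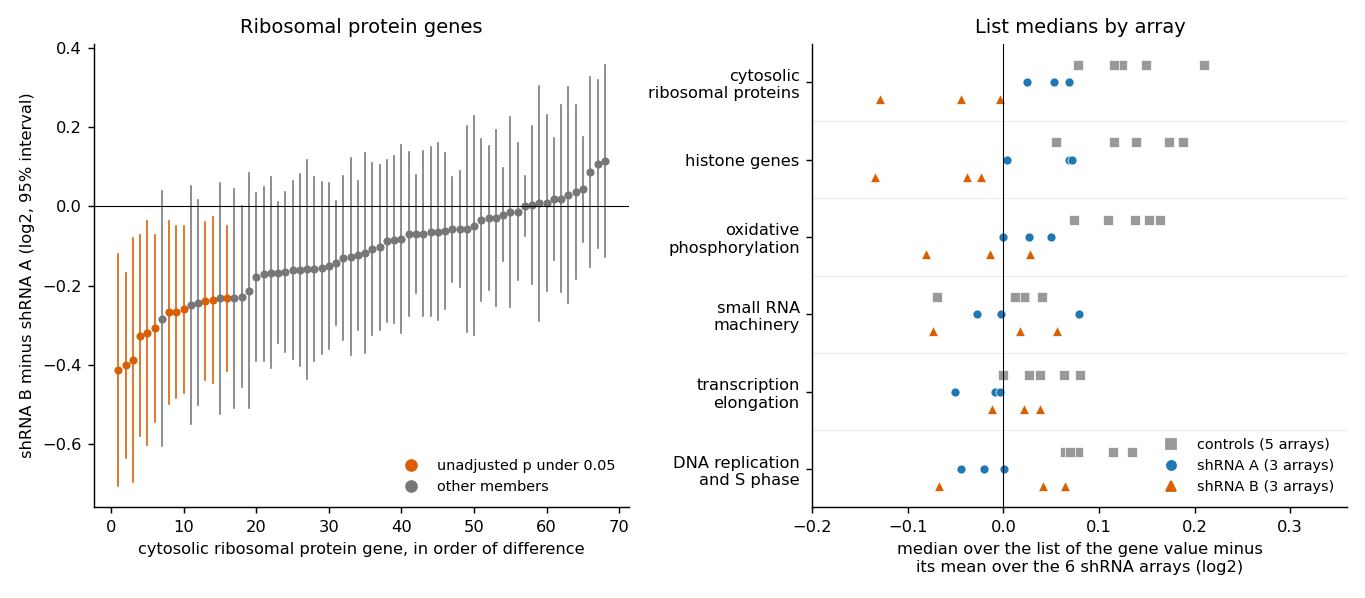
The left panel plots shRNA B minus shRNA A (log2) with its 95% interval for each of the 68 cytosolic ribosomal protein genes in order of difference, with orange for an unadjusted p under 0.05; the right panel plots, for 6 lists, the median over members of the gene value minus its mean over the 6 shRNA arrays (log2) on each array. In the ribosomal list the 3 arrays of shRNA B lie below the 3 of shRNA A and the 5 controls lie above both; the lists of the small RNA machinery, elongation and DNA replication mix the shRNA arrays.

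Stress and metabolic lists had medians nearer to 0. ATF4, the transcription factor of the amino acid and integrated stress response, gave 10.09, 9.95 and 10.17 with shRNA A and 9.75, 9.87 and 9.61 with shRNA B, with a control mean of 10.31. The groups did not overlap, and the difference was -0.33 (SE 0.103, limma adjusted p = 0.787). Its 23 probe sets were divided, 10 higher and 13 lower with shRNA B, and the difference was -0.04 with their mean and -0.17 without the filter on dim probe sets. Of the 36 measured genes of its list, 16 were higher and 20 lower (median -0.032), with ATF4 alone at an unadjusted p under 0.05 (2.75% of all genes in that direction). The ER stress chaperones were 11 higher and 9 lower of 20 measured (median 0.0061), and the cytosolic chaperones 11 and 10 of 21 (median 0.0084). HSPA8, the constitutive cytosolic HSP70, gave 11.63, 11.91 and 11.70 against 12.01, 11.96 and 11.99 (difference 0.24, limma adjusted p = 0.868).

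Of 27 measured sterol and fatty acid genes, 12 were higher and 15 lower (median -0.0079), and 3 were lower at an unadjusted p under 0.05 (2.75% of all genes were), all without overlap (5.34% of all genes). FADS2, the delta-6 desaturase, gave 9.36, 9.14 and 9.31 with shRNA A and 8.97, 8.86 and 9.02 with shRNA B (difference -0.32, limma adjusted p = 0.735). INSIG1, which holds the sterol sensor in the endoplasmic reticulum, and SREBF2, the transcription factor that induces the pathway, differed by -0.20 and -0.18. DHCR7, the last enzyme of cholesterol synthesis, lay the other way at 9.22, 9.22 and 9.19 against 9.32, 9.34 and 9.36.

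The remaining pathway lists had medians between -0.035 and 0.026. In oxidative phosphorylation, 16 were higher and 27 lower of 43 measured (median -0.035), with ATP5F1D, an ATP synthase subunit, at -0.28. In glycolysis and hypoxia the counts were 13 and 16 of 29 (median -0.0040), and EGLN3, an oxygen sensor, stood at 0.12 and HK1, hexokinase, at 0.18. The proteasome gave 15 higher and 16 lower of 31 (median -0.0059), with PSMC5 at 0.21, and the actin list 11 and 22 of 33 (median -0.023). For DNA replication the counts were 25 and 14 of 39 (median 0.026), with TK1, thymidine kinase, at 0.24, and for mitosis 13 and 19 of 32 (median -0.021), with CKS2 at -0.25. The p53 targets were 11 higher and 12 lower of 23 (median -0.0089). CDKN1A, the cell cycle inhibitor p21, gave 8.69, 8.76 and 8.49 with shRNA A and 8.33, 8.52 and 8.43 with shRNA B, overlapping (difference -0.22). GADD45B differed by 0.18. Without the filter on dim probe sets CDKN1A stood at -0.03 and GADD45B at -0.03. With the mean of the probe sets they stood at -0.17 and 0.05. Each of these lists had from 0 to 2 members at an unadjusted p under 0.05 in a direction, and 0 passed. Over all genes 2.83% were higher and 2.75% lower at that threshold. Of 12 measured HEK293 markers, SOX11, a neural transcription factor, differed by 0.25 (limma unadjusted p = 0.00068, adjusted p = 0.449) and HOXA10 by -0.37. With dim probe sets kept, these were 0.049 and 0.0029, and with each gene's probe sets averaged they were 0.014 and -0.04. In the 5 lists of other cell types no member had an unadjusted p under 0.05, and the smallest in limma was that of KRT5, at 0.0880.

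Genes that differed from the controls with both shRNAs together show how alike the hairpins were where the series has calls. In limma over all 11 arrays, 33 genes passed, 28 lower and 5 higher than the controls. This choice favours genes whose shRNA arrays lie close together, so the closeness that follows is in part set by it. Among the 33, shRNA B minus shRNA A ran from -0.16 to 0.16 with a median of -0.0080, 0 passed, and 1 had an unadjusted p under 0.05 (5.57% of all genes). The size of the difference from the controls was larger with shRNA B in 23 and with shRNA A in 10. The 6 genes of widest difference were HMG20B, STUB1, TMSB10, OGFR, RAC3 and PPP4C. HMG20B, an HMG box subunit of a histone demethylase complex, gave 8.44, 8.43 and 8.46 with shRNA A and 8.22, 8.21 and 8.39 with shRNA B, all below the control range of 8.66 to 8.83. Of its 12 probe sets, 4 were higher and 8 lower with shRNA B. The HMG20B difference of -0.16 became -0.04 with the mean of the probe sets and -0.05 without the filter on dim ones. STUB1, the ubiquitin ligase CHIP, gave 9.68, 9.60 and 9.60 against 9.76, 9.67 and 9.94, with controls from 9.92 to 10.21. In STUB1 the highest array of shRNA B therefore entered the control range. TMSB10, which binds actin monomers, differed by -0.15, the opioid growth factor receptor gene OGFR by 0.15, RAC3 by -0.14 and the phosphatase gene PPP4C by 0.14.

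Set separately against the same 5 controls, shRNA A called 1 gene and shRNA B 9 in limma with 3 levels. These comparisons share their control arrays, and a gene past the threshold with 1 shRNA is not thereby shown to differ between them. CEBPE was called for shRNA A, 0.58 below the controls (adjusted p = 0.0199), and stood 0.15 below them with shRNA B (adjusted p = 0.412). TMEM191A was called for shRNA B, 0.57 above the controls (adjusted p = 0.0048, against 0.457 with shRNA A), and so was C9orf43 (adjusted p = 0.0186, against 0.973). Without the filter on dim probe sets their direct differences were 0.030 and 0.020. C9orf43 lay at 7.94 in the controls and 8.03 with shRNA B. Its bright probe set 3185637 gave means of 11.78 with shRNA A, 11.81 with shRNA B and 11.80 in the controls. PTOV1 gave 9.54, 9.41 and 9.39 with shRNA A and 9.18, 9.09 and 9.14 with shRNA B, with controls from 9.53 to 9.76. It was called for shRNA B (adjusted p = 0.0131, against 0.287), and the direct difference was -0.31 (SE 0.081, limma adjusted p = 0.735), or -0.05 with the mean of the probe sets. ATF4, described above, was also called for shRNA B (adjusted p = 0.0383, against 0.366). In the other 5, the direct difference was -0.16 for HMG20B, -0.14 for RAC3, 0.13 for the spectrin gene SPTBN5, -0.014 for the fucose kinase gene FCSK and 0.011 for TRIML2. The shRNA groups stood apart in HMG20B, RAC3 and SPTBN5, and they overlapped in FCSK and TRIML2. Groups without overlap were found in 10.6% of the 14534 genes tested. Choosing genes called with shRNA B and not with shRNA A itself favours such a gap. Without the filter on dim probe sets SPTBN5 stood at -0.019, HMG20B at -0.05, RAC3 at -0.08, FCSK at 0.0069 and TRIML2 at -0.0068. The adjusted p-values of these 5 for shRNA B ran from 0.0048 to 0.0455, and for shRNA A from 0.104 to 0.351.

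In the splicing index, 7 probe sets, of ATAD2, MARCKSL1, PRELID3B, SKIC3, TMEM50A, VRK1 and ZNF598, passed against the controls with both shRNAs together. At VRK1, a nuclear serine and threonine kinase gene, probe set 3550554 gave -0.18, -0.16 and -0.14 with shRNA A and -0.22, -0.19 and -0.21 with shRNA B, and controls from 0.013 to 0.044. At ATAD2, a bromodomain ATPase, probe set 3151585 gave -0.04, 0.12 and 0.04 against 0.11, 0.04 and -0.02, and controls from 0.34 to 0.45. Neither shRNA overlapped the controls at either probe set, and at ATAD2 they overlapped each other. The widest differences between the shRNAs were -0.16 at TMEM50A (probe set 2325786) and 0.13 at MARCKSL1 (probe set 2405002), with limma adjusted p-values of 0.905 and 0.938. The ZNF598 probe set did not enter the fit between the shRNAs.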

How the data were processed

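Per the labels, 11 Human Exon 1.0 ST arrays were deposited, and 6 of them (3 per shRNA) enter the comparison. The deposited table holds log2 values of 1399022 probe sets, a scale read from the values. How the authors corrected and normalized the deposited values, with which software and on which build, is not given in the sources used here. Between 13190 and 15431 probe sets per array sit at a floor and were treated as missing. Probe sets came with gene symbols from the platform annotation: 355799 had 1 symbol, 15195 several and 1028028 none listed. Of 19536 symbols, 16450 are current in RefSeq GRCh38.p14, 2965 were updated and 121 kept. Probe sets with 1 symbol, a value on all 6 arrays and a mean of at least the table median of 7.91 were used, with at least 4 per gene (219636 probe sets, 14534 genes, a median of 12 per gene).

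The gene value is the median of a gene's probe sets. Differences were fitted with limma 3.58.1 (lmFit, eBayes with trend) in R 4.3.3, with Benjamini-Hochberg adjustment over all genes or probe sets, and single values were compared with exact permutation tests over the 20 splits. The scripts were tested on simulated data. HTATSF1 was named first, then up to 12 genes per direction that passed without overlap, filled to 10 with the smallest unadjusted p without overlap. For probe sets the numbers were 8 and 6, 1 per gene, and for a list up to 4 members of smallest p. Of the genes that passed for both shRNAs against the controls up to 6 were named, and those for a single shRNA up to 12. RPS27, RPS28 and the 7 probe sets called against the controls fall outside this rule and were named after their values were seen. Members and lists were chosen with earlier results of these data known. Alternatives covered the filter, the summary of probe sets, normalization, background, variance model, arrays in the fit, blocks and each replicate left out; 3 arrays per shRNA limit the precision.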

Additional observations from a re-analysis of the deposited data

How the results depend on the processing

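Of the alternatives run, 5 moved a count of calls. The count of genes past an adjusted p of 0.05 in limma was 0, and it was 1 with the mean of the probe sets (CEBPE, 0.33, adjusted p = 0.0430), 1 with robust eBayes (CEBPE, adjusted p = 0.0307), 1 with a block for the suffix of the array names (TSGA10IP, -0.26, adjusted p = 0.0027, against -0.06 and 0.947 without the block) and 5 with only the 4 arrays that carry the suffix. Those 5 were CEL (0.75), COL8A2 (0.87), ESRRB (-0.18), FGF20 (-0.25) and TSGA10IP (-0.26), and the lone array of shRNA A is there assumed to vary like those of shRNA B. The count of probe sets was 0 in the splicing index and 528 with diffSplice, which differs by pooling the spread within a gene. Counts stayed at 0 under the other settings run, with 439 to 1026 genes at an unadjusted p under 0.05 over all settings and 4272 to 18713 probe sets; leaving out each replicate in turn gave 0 genes and 0 probe sets each time. The deviations of same-numbered arrays had correlations of 0.049, -0.11 and 0.12, and those of other pairs ran from -0.27 to 0.22. The labels do not state whether the numbers mark a shared batch, and so few pairs cannot decide it. With the replicate block 0 genes (smallest adjusted p = 0.0815 in limma) and 0 probe sets passed, and HTATSF1 remained at -0.07 (adjusted p = 0.977). HTATSF1 ran from -0.17 to -0.038 and was past the threshold in 0 of 16 settings; it had no value with the higher floor. The ribosomal protein median ran from -0.16 to -0.071, with 47 to 64 members lower and 4 to 19 of them at an unadjusted p under 0.05. Named genes turned direction only without the filter on dim probe sets (8 of 20), and 16 of 20 moved by over 1.5 times there, as did 9 of 20 with the mean of the probe sets and 20 of 20 with the signal above the array median; with the higher floor 1 of 20 was measured. The brightness difference stayed between -0.023 and 0.037. The GFP shRNA against the empty vector gave 0 genes without the filter or the trend, with the mean of probe sets and with the higher floor, settings chosen for it after seeing the data.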
